A study of Caenorhabditis elegans with 2 samples.

Results

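SNPC-4 peaks at protein-coding promoters of the autosomes other than IV were taken from a chromatin immunoprecipitation and sequencing (ChIP-seq) study of eGFP-tagged SNPC-4 in Caenorhabditis elegans. The study has 1 group of 2 biological replicates: whole young adult worms, males and females pooled, of strain OP179, which carries unc-119(ed3) III and the insertion wgIs179. The insertion encodes the tagged SNPC-4, and the promoter that drives it is not given in the labels. Because worms were taken whole, the peaks are an average over all tissues and the germ line. The starting point was the authors' optimal peak list on the ce11 assembly, 1781 peaks left after a filter on reproducibility. A peak of this list need not be in both replicates' own lists, and the matches are given below. Each peak has a summit, its point of highest enrichment, and a signal value given by the authors' peak caller. A peak was counted here when its summit lay within 300 bp of the annotated 5' end of a protein-coding gene on I, II, III or V, and when no annotated 5' end of a small or other non-coding RNA gene lay within that distance. That rule kept 381 of the 1781 peaks, out of 883 on these 4 chromosomes. Another 68 peaks beside a protein-coding 5' end were left out because a non-coding RNA 5' end was also near. With 1 group there is no comparison between conditions and no test, so counts are given with 95% exact binomial (Clopper-Pearson) intervals, and beside a count of 0 the limit given is 3 counts of the total; both reflect counting error alone.

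SNPC-4 is the worm homologue of SNAPC4, the large DNA-binding subunit of SNAPc (small nuclear RNA activating protein complex). SNAPc binds the proximal sequence element upstream of small nuclear RNA genes and of the worm spliced leader RNA genes, and recruits RNA polymerase II or III. In the worm germ line, SNPC-4 is also known for its role in the transcription of piRNA (21U-RNA) genes, most of which lie in clusters on chromosome IV. Protein-coding promoters are not the textbook targets of this complex. Many worm mRNAs are trans-spliced: a spliced leader replaces the start of the transcript, so that an annotated 5' end can be the splice site and lie downstream of the true start. Some worm genes are transcribed together in operons, and many others stand back to back with a neighbour and share the DNA between their 5' ends.

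Sequences under the summits are shown for some of the strongest promoter peaks, without those of I such as spd-2/F32H2.10 (180) and rps-19/hsr-9 (162). All are from the reference assembly (WBcel235, the same as ce11), span 60 bp to each side of the summit, and run 5' to 3' on the strand of the nearest gene. Among the peaks of II, III and V, the 4 strongest were those of rpl-3, which encodes a protein of the large ribosomal subunit, cdc-48.1, which encodes an AAA ATPase of the p97 family, cox-5A, which encodes a subunit of cytochrome c oxidase, and tasp-1, the homologue of the protease taspase. Capitals mark AACACGCT on either strand, a word chosen after these sequences had been read.
rpl-3, chrIII:3867514-3867634, plus strand: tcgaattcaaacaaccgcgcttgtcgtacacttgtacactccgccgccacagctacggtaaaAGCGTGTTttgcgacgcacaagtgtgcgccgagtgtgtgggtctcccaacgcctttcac
cdc-48.1, chrII:10563497-10563617, minus strand: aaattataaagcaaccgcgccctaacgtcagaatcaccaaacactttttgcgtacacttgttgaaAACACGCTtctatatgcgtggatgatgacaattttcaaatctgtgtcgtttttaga
cox-5A, chrIII:12905143-12905263, plus strand: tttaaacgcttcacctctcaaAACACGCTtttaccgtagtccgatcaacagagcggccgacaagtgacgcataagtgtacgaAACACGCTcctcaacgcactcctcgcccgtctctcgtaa
tasp-1, chrIII:10759192-10759312, plus strand: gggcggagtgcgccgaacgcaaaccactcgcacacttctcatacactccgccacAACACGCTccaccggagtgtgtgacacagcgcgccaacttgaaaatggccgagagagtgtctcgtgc

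Each of these 4 windows held the word AACACGCT, and the cox-5A window held it 2 times. The word was chosen after reading them, and no window of I is shown. The next strongest peak of II, III and V, that of ify-1/rpl-22, did not hold the word in a window of the same length. Within 100 bp of the summit the word was present at 5 of the 50 strongest promoter peaks (interval 3.33 to 21.8%) and at 6 of the other 331 (1.81%, interval 0.668 to 3.90). It was present in 0.394% of 762 windows of 201 bp placed 1000 bp to each side of the summits, and in 0.487% of the windows of 201 bp at all 13961 protein-coding promoters of I, II, III and V, centred at 136 bp upstream of the 5' end, the median position of the summits. A second word read from the strongest peaks, AGTGTGTG, was at 7 of the 50 strongest and at 10 of the other 331 (3.02%), against 0.931% of all promoters. Both words were picked because some of the strongest peaks share them, so the differences describe that choice.

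A second set of sequences is shown for 2 other 8-mers, which were spread over strong and weak peaks. AAACGCGC and AGACGCAG each lay within 100 bp of the summit at 47 of the 381 peaks (12.3%, interval 9.21 to 16.1). These 8-mers had been picked with earlier results of these data known. On II, III and V, the strongest peaks with AAACGCGC were those of C47E8.4, of dnj-9, which encodes a DnaJ-domain protein, of the divergent pair dnsn-1/C24H12.4, and of rsp-2/rsp-1, a neighbouring pair of genes for SR splicing factors. Capitals mark AAACGCGC or AGACGCAG on either strand.
C47E8.4, chrV:14685674-14685794, minus strand: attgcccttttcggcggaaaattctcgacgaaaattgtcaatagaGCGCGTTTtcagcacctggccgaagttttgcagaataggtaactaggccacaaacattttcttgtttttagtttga
dnj-9, chrII:4851755-4851875, plus strand: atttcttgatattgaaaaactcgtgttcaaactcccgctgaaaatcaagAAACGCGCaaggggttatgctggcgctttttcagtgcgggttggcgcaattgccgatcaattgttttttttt
dnsn-1/C24H12.4, chrII:410993-411113, minus strand: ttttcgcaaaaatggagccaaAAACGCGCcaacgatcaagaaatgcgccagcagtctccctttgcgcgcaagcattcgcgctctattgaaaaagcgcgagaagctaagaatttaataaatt
rsp-2/rsp-1, chrII:11453162-11453282, plus strand: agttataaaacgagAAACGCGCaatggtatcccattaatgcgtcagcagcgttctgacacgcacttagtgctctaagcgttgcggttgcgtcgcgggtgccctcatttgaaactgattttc

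The third set is shown for AGACGCAG. On II, III and V, its strongest peaks were those of sec-61.G, which encodes the gamma subunit of the Sec61 translocon, of efl-1, an E2F-family transcription factor, of the divergent pair drr-2/set-16, and of C34C12.8. Capitals mark the same 8-mers as above. In these windows the 8-mer stood close to the middle, which is the summit.
sec-61.G, chrV:10897297-10897417, minus strand: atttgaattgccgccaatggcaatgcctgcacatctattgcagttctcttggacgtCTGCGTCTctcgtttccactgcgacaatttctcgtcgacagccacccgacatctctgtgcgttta
efl-1, chrV:16965797-16965917, minus strand: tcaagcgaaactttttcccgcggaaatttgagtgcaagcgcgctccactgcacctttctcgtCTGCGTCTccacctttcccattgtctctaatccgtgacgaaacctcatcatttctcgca
drr-2/set-16, chrIII:13643665-13643785, minus strand: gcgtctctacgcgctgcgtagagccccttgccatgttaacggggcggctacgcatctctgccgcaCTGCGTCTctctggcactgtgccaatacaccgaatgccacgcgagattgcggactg
C34C12.8, chrIII:3460188-3460308, plus strand: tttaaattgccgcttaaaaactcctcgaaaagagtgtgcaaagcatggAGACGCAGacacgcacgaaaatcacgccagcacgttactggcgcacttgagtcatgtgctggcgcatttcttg

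AAACGCGC was in 12.3% of the summit windows, against 0.262% of the flanking windows and 1.15% of all promoter windows. AGACGCAG was in 12.3% of the summit windows, 0.919% of the flanking windows and 3.04% of all promoter windows. Either 8-mer stood at 90 of the 381 peaks (23.6%, interval 19.4 to 28.2), against 4.14% of all promoter windows, and both stood at 4. Among the 100 strongest promoter peaks 25 had either 8-mer, and among the 100 weakest 24 did. The median distance of a copy from the summit was 22.5 bp for each 8-mer. Copies of AAACGCGC stood on the strand of the nearest gene in 51.0% of cases and copies of AGACGCAG in 38.0%. Read from the promoters, 37 of the 161 promoters with AAACGCGC and 36 of the 424 with AGACGCAG had a SNPC-4 promoter peak (22.98% and 8.49%), beside 3.55% of all promoters. Since both 8-mers had been picked from these peaks, those shares describe that choice. A match is a description of letters and was not tested as a binding site.

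**Figure D1:**
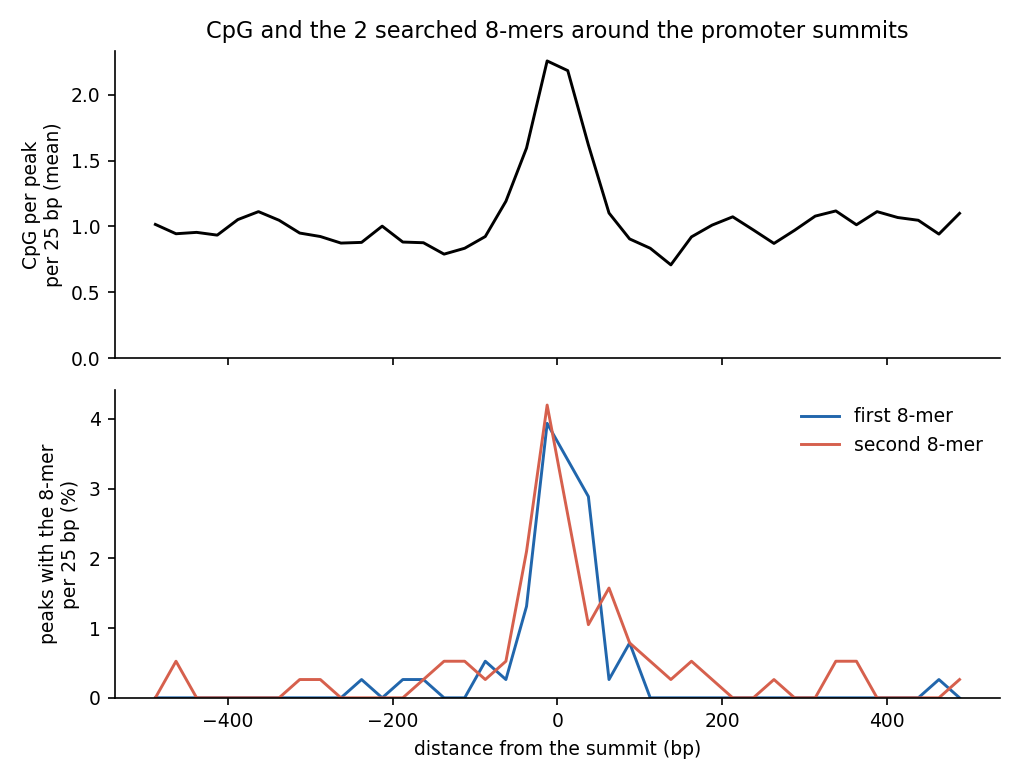
Sequence around the 381 promoter summits, in 25 bp steps from -500 to 500 bp. Upper panel, mean number of CpG dinucleotides per peak; lower panel, percent of peaks with AAACGCGC (first 8-mer, blue) or AGACGCAG (second 8-mer, orange) on either strand. CpG reaches 2.26 per step at the summit, and both 8-mers pile up within about 50 bp of it.

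Other searched words were closer to the promoter background. GAGAGAGA was at 5.25% of summits, against 1.18% of flanks and 2.67% of all promoters, and CCGCCC was at 8.40%, against 2.10% of flanks and 5.89% of all promoters. The E-box CACGTG was at 4.99% of summits and 4.06% of all promoters. The TATA-like word TATAAA was at 16.3% of summits, 16.5% of flanks and 27.4% of all promoters. Words searched because of small RNA genes stood at 2 peaks or fewer each. GGGTTCGA, from the internal B box of tRNA genes, was at 0 of 381 summits, which allows a share of up to 0.787%, and at 0.265% of all promoters. CTGTTTCA, the core of the 21U-RNA upstream motif, was at 0.525% of summits and 0.924% of all promoters. CGGAACCC was at 0.525% of summits and 0.215% of all promoters. The 2 peaks with CGGAACCC were those of F48G7.4 and syp-3/F39H2.3, and the 2 with CTGTTTCA were those of pdhk-2 and of C34E10.12/C34E10.10/atp-2.

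Base composition also differed from place to place. The summit windows had a mean GC content of 40.2% ± 6.03 (SD over 381 windows), against 38.2% ± 7.10 in the flanks and 33.9% ± 6.28 in all promoter windows. CpG dinucleotides averaged 11.8 ± 3.74 per 201 bp at the summits, 7.87 ± 3.71 in the flanks and 6.18 ± 3.36 in all promoters. The 100 strongest peaks averaged 12.6 CpG and the 100 weakest 11.3. The 6-base words whose share at the summits most exceeded their share in all promoters were ACGCGC, at 26.5% of summits, 2.36% of flanks and 4.68% of all promoters, and GAGCGC, at 24.7%, 4.99% and 3.95%. CGAAAA was more frequent at the summits (52.2%) but also in the flanks (31.4%) and in all promoters (33.3%). A further pair of 8-mers, GCGCCAGC at 8.40% and AAGTGCGC at 9.71% of summits, were in none of the 762 flanking windows and in 0.451% and 0.967% of all promoters. These words were chosen by the difference between their shares at the summits and in all promoters.

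Protein-coding promoter peaks were of middling strength in the list. Their signal ran from 31.1 to 231, with a median of 42.9 and quartiles of 36.6 and 57.6. Only 1 of the 381 stood among the 100 strongest peaks of the whole list, while 93 ranked from 101 to 500, 127 from 501 to 1000 and 160 from 1001 to 1781. The median of 42.9 compares with 42.6 for the whole list, 49.0 for the 142 protein-coding promoter peaks of IV, 46.1 for the 53 of X, 39.8 for the 254 peaks of I, II, III and V with no annotated 5' end nearby, and 52.1 for the 241 near a non-coding RNA 5' end. The signal is computed from pooled reads and has no error between replicates.

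The strongest peak was that of rpl-3 (chrIII:3867463-3867705), with a signal of 231 in the optimal list, 90.1 in replicate 1 and 137 in replicate 2. The next stood between spd-2, which encodes a centrosome protein, and F32H2.10 on I (8970070 to 8970271), with a signal of 180, 75.5 in replicate 1 and 111 in replicate 2. The peaks of cdc-48.1 (176, with 49.1 in replicate 1 and 121 in replicate 2) and cox-5A (175, with 50.2 and 124) were of nearly equal signal. That of tasp-1 reached 170, with 66.3 in replicate 1 and 105 in replicate 2. The peak between rps-19, a small ribosomal subunit protein gene, and hsr-9 had 162, with 37.7 in replicate 1 and 118 in replicate 2. The peak between ify-1, the worm securin gene, and rpl-22 had 142, with 67.0 in replicate 1 and 76.5 in replicate 2. These 7 peaks ranked from 86 to 218 in replicate 1's list and from 106 to 168 in replicate 2's list, whose signal scales differ.

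The gene snpc-4 itself followed with the eighth strongest promoter peak, at 131 (32.8 in replicate 1 and 106 in replicate 2), 210 bp upstream of its 5' end. The spd-2/F32H2.10 peak, second in strength, lies 7858 bp from the snpc-4 start. Within 20 kb to each side of that start the optimal list had 3 peaks, 2 of them promoter peaks, against 0.510 peaks for an average window of that size on the same chromosome. The transgene carries a copy of snpc-4, and whether extra copies of the DNA around snpc-4 add to these peaks was not tested. No promoter peak lay within 50 kb of unc-119, the gene mutated in this strain.

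Peaks 9 to 25 in strength lay at genes of several kinds. They were Y71H2AM.20 (124), the pair rps-20/ekl-4 (122), sec-61.G (119), Y48B6A.1 (118), iff-2, a gene for the translation factor eIF5A (113), npr-23 (111), the pair nlp-4/exos-3 (107), eif-3.C (105) and cox-5B (105). The remaining ones were ndk-1, a nucleoside diphosphate kinase gene (99.5), efl-1 (98.6), eif-3.B (91.1), C47E8.4 (90.4), the pair lin-53/nra-2 (88.7), his-37, a histone H4 gene (87.4), the pair ahsa-1/C01G10.7 (85.5) and rpt-1, which encodes an ATPase subunit of the proteasome (85.4). Histone genes have near-identical copies, so the place of reads from them is uncertain.

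The replicates were uneven. Each replicate has its own relaxed list, 20730 peaks in replicate 1 and 30000 in replicate 2, called against a control. Cut at the 1781 strongest, replicate 1's list had a peak within 200 bp of 191 of the 381 summits (50.1%) and replicate 2's list of 337 (88.5%). Both cut lists held 165 (43.3%, interval 38.3 to 48.4), replicate 2 alone 172, replicate 1 alone 26 and neither 18. In the whole relaxed lists 370 were found in replicate 1 and 379 in replicate 2. The median rank was 1666 in replicate 1 and 822 in replicate 2. Of the 368 promoter peaks found in both relaxed lists, 266 (72.3%, interval 67.4 to 76.8) ranked higher in replicate 2, against 308 of 493 other peaks of the same chromosomes (62.5%, interval 58.0 to 66.8) and 309 of 691 peaks of IV (44.7%, interval 41.0 to 48.5). Read depth is unknown for both libraries, and its part in this was not tested.

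**Figure D2:**
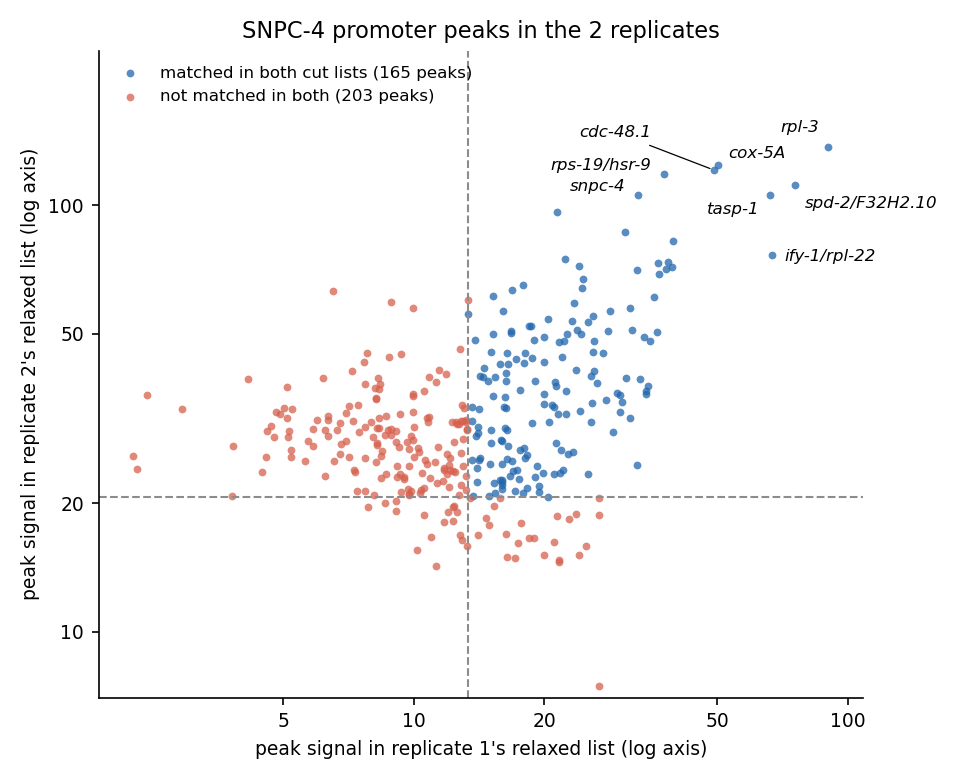
Peak signal of the promoter peaks in replicate 1 (horizontal) and replicate 2 (vertical), log axes, for the 368 peaks found in both relaxed lists. Blue points are the 165 matched in both cut lists and orange points the others; dashed lines are the signal at the cut, 13.3 in replicate 1 and 20.7 in replicate 2. The named peaks lie above both lines, while most orange points lie left of the replicate 1 line.

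Strong promoter peaks were mostly matched in both cut lists, and weak ones mostly were not. The lists are cut by signal and the optimal signal comes from the same reads, so weak peaks fall below a cut more easily. In the whole relaxed lists 368 of the 381 (96.6%) were matched in both. Of the 50 strongest, 49 were matched in both cut lists, and of the 100 strongest, 92, but of the 100 weakest only 8. Peaks matched in both had a median signal of 59.8, and the others 37.8. The share matched in both was 43.3% here, against 47.4% of the whole list, 54.9% of the promoter peaks of IV, 45.3% of those of X, 40.6% of the peaks with no annotated 5' end nearby and 59.3% of those near a non-coding RNA 5' end.

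The 381 peaks lay at 495 genes, which is 3.55% of the 13961 protein-coding genes of the 4 chromosomes (interval 3.24 to 3.87). A peak matched in both replicates stood at 223 genes, or 1.6%. No gene had more than 1 promoter peak. The share of genes with a peak was 4.52% on I (98 peaks, interval 3.79 to 5.34), 3.39% on II (89 peaks, interval 2.81 to 4.05), 4.62% on III (93 peaks, interval 3.85 to 5.49) and 2.52% on V (101 peaks, interval 2.11 to 3.00). The stretch from 25% to 75% of chromosome length held 61.7% of the peaks and 54.8% of the genes. On V these shares were 71.3% of peaks and 52.5% of genes, and on III they were 55.9% and 59.2%. Chemoreceptor and other large gene families fill much of V. Their counts follow below for the 4 chromosomes together, and their part in the share on V was not tested.

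Summits lay just upstream of the annotated 5' end. The median position was 136 bp upstream, with quartiles of 56 and 197 bp upstream, and 344 of 381 summits (90.3%, interval 86.9 to 93.1) were upstream. The stretch from 50 to 200 bp upstream held 207 summits (54.3%). Without the limit of 300 bp, 642 peaks of these chromosomes had no non-coding RNA 5' end nearby. Of these, 158 lay 100 to 200 bp upstream of the nearest protein-coding 5' end, 86 lay 200 to 300 bp upstream and 45 lay 300 to 400 bp upstream. Downstream, 29 lay within 100 bp and 3 from 100 to 200 bp. The limit of 300 bp cut through the upstream tail: the last peaks inside, all upstream, were those of ldp-1 (295 bp, signal 33.7), ZK1127.5 (294 bp, 33.1) and rpl-14 (293 bp, 46.3). The first outside lay upstream of cept-2 (302 bp, 55.1) and C14B9.10 (303 bp, 42.1) and downstream of the 5' end of Y71G12B.23 (301 bp, 51.7).

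**Figure D3:**
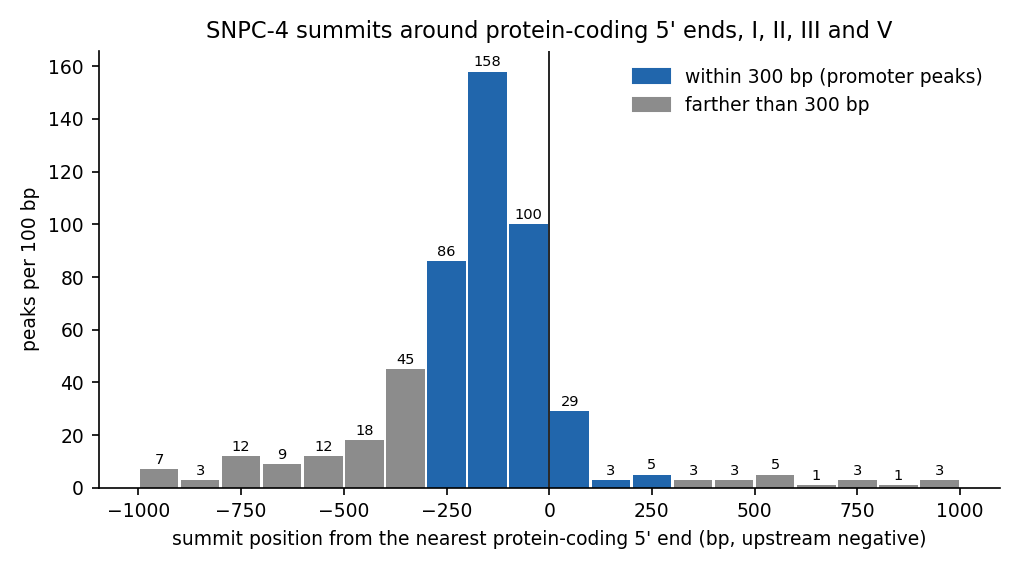
Number of SNPC-4 summits per 100 bp by position from the nearest protein-coding 5' end, on I, II, III and V, for peaks with no non-coding RNA 5' end within 300 bp. Blue bars are the 381 promoter peaks and grey bars peaks farther than 300 bp. The tallest bar, 158 peaks, is at 100 to 200 bp upstream, and counts drop from 100 in the last 100 bp upstream to 29 in the first 100 bp downstream.

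Measured from the first coding base, the median was 188 bp upstream, and 375 of 381 summits (98.4%) were upstream of it. The summit was between genes in 326 cases (85.6%), in a 5' UTR in 31, in an intron in 17, in a coding exon in 4 and in a 3' UTR in 3. The annotated 5' end was the first coding base in 24 of the 381 nearest genes (6.30%) and in 24.2% of all genes, so annotated 5' UTRs were more usual among the peak genes. The position varied little with strength, at 155.5 bp upstream for the 100 strongest and 135.5 bp for the 100 weakest. It was 139 bp upstream on I, 138 on II, 141 on III and 130 on V. The nearest small or other non-coding RNA 5' end was a median of 7889 bp away, and lay within 1000 bp in 33 cases (8.66%).

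Back-to-back genes made up a large share of the promoters. At 105 of the 381 peaks (27.6%, interval 23.1 to 32.3) the summit was within 300 bp of the 5' ends of 2 genes pointing away from each other. A single 5' end was near at 270 peaks, overlapping 5' ends of opposite strands at 3, and ends of the same strand at 3. Counted by the nearest gene, 144 of 381 (37.8%, interval 32.9 to 42.9) had a divergent partner within 600 bp, against 1760 of all 13961 genes (12.6%, interval 12.1 to 13.2). A region with 5' ends on both sides can enter through either of them, and how much this adds was not tested. Peaks of divergent promoters had a median signal of 46.1 and were matched in both replicates in 53.3% of cases, against 41.5 and 40.0% for peaks with a single 5' end.

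Within a divergent promoter the summit sat between the genes. The 5' ends were a median of 305 bp apart (quartiles 239 and 379 bp). The summit lay between them in 96 of 105 cases (91.4%) and within 50 bp of the midpoint in 54 (51.4%), although the rule itself requires both ends to be near. The strongest, spd-2/F32H2.10, had ends 210 bp apart and a summit 99 bp from the spd-2 end and 111 bp from the F32H2.10 end. At rps-19/hsr-9 the ends were 445 bp apart, with the summit 286 bp from rps-19 and 159 bp from hsr-9. At ify-1/rpl-22 they were 437 bp apart, with the summit 202 bp from ify-1 and 235 bp from rpl-22. The rps-20/ekl-4 summit was 241 bp from rps-20 and 156 bp from ekl-4. The nlp-4/exos-3 summit was off centre, 67 bp from nlp-4, a neuropeptide-like gene, and 257 bp from exos-3, which encodes an exosome subunit.

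**Figure D4:**
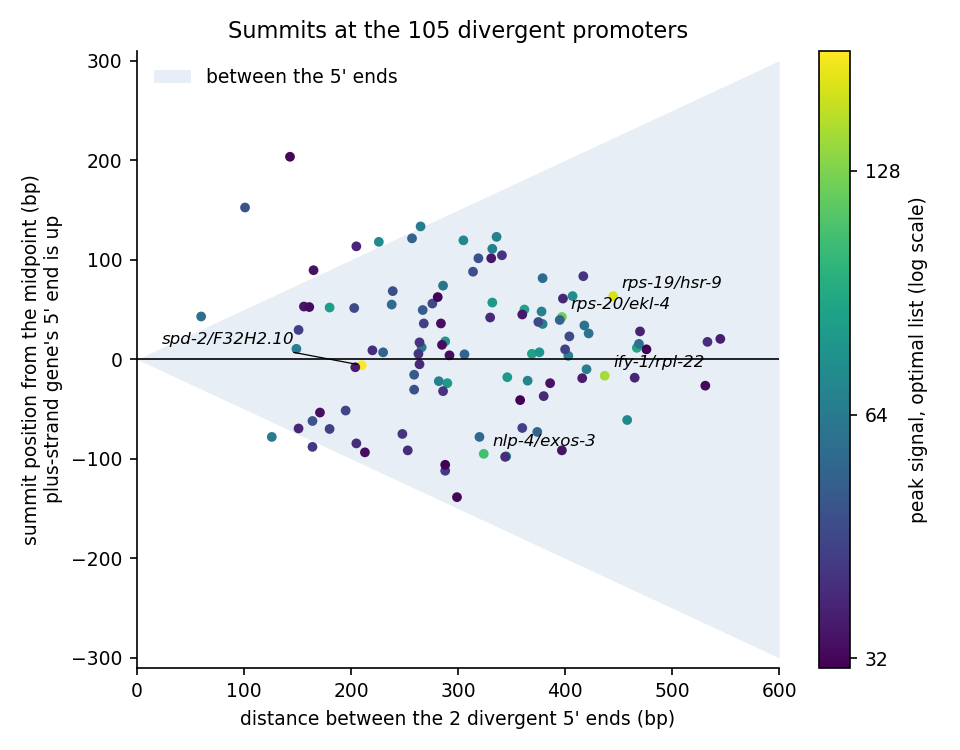
Summit position in the 105 divergent promoters: horizontal, distance between both 5' ends in bp; vertical, summit position from their midpoint, with the plus-strand gene upwards; colour, peak signal on a log scale. The shaded area is the DNA between the 5' ends, and 96 of the 105 points lie in it.

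Genes in close head-to-tail runs were examined as candidates for operons, since the annotation used has no operon records. A run was a set of genes of 1 strand with gaps of at most 500 bp. The nearest gene stood first in such a run at 105 of 381 peaks (27.6%, interval 23.1 to 32.3), against 15.4% of all genes. It stood alone at 211 (55.4%), against 61.9% of all genes, and later in a run at 64 (16.8%, interval 13.2 to 20.9), against 21.9%. Counted by gene, 6.75% of first genes, 3.22% of lone genes and 2.16% of later genes had a promoter peak, beside 3.55% of all genes. Where the nearest gene stood first, the strongest peaks were those of tasp-1 (followed by dpy-28), snpc-4 (followed by mdt-31), sec-61.G, eif-3.B and nra-2. At divergent promoters the farther gene could also stand first in a run, as did F32H2.10 (180), rps-20 (122) and exos-3 (107). At later genes with a peak the median gap to the gene upstream was 264 bp, against 150.5 bp for all later genes. The strongest of these were eif-3.C, second in the run sys-1, eif-3.C, T23D8.3, tsp-7 with a gap of 400 bp and a signal of 105, then his-37 (263 bp, 87.4), dnj-9 (394 bp, 82.8), hrpk-1 (434 bp, 76.7) and fbxl-2 (238 bp, 73.3).

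The functions of the 495 genes were described with 30 lists of genes defined by their symbols. For reading them, 3.55% of all genes had a peak. The interval of a list's share lay wholly above that value for 15 lists, wholly below for 4 and across it for 11. Against the share of all genes in each replicate's own cut list, all 15 lay above it in replicate 2 (3.67% of all genes), but 8 of the 15 in replicate 1 (2.17% of all genes), where the intervals of the other 7 spanned it. Lists share some genes, and genes sharing a divergent promoter share 1 peak. Symbols as such were more frequent among the peak genes, since 75.4% of them had a symbol other than a sequence name, against 55.8% of all genes. Of the 7789 genes with such a symbol, 373 had a peak, and the lists were not set against that higher share.

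Genes of protein synthesis were often among them. Of 61 cytoplasmic ribosomal protein genes, 16 had a peak (26.2%, interval 15.8 to 39.1), led by rpl-3, rps-19 and rpl-22, with a median signal of 66.3 and a median summit 258 bp upstream. At divergent promoters the summit was nearer the partner gene for rps-19 (286 bp, against 159 bp to hsr-9) and rpl-22 (235 bp, against 202 bp to ify-1). The same held for rps-20, rpl-31 and rpl-26, while the rps-22 summit was nearer rps-22 (121 bp, against 145 bp to polh-1). Another 8 ribosomal protein genes had a peak that the rule removed because a non-coding RNA 5' end was near. Translation factors counted 10 of 36 (27.8%), led by eif-3.C, eif-3.B and eef-1G (82.1), and 5 of the 10 belong to the initiation complex eIF3. Mitochondrial ribosomal protein genes counted 9 of 59 (15.3%), led by mrpl-49 (72.1) and mrpl-17 (60.6), with a median signal of 35.8. Ribosome biogenesis counted 3 of 15, namely fib-1, the fibrillarin gene (56.2), nifk-1 (52.9) and nol-56 (39.3). Aminoacyl-tRNA synthetases counted 1 of 24, aars-1 (34.0). Matched in both replicates were 11 of the 16 cytoplasmic ribosomal protein genes, 5 of the 10 translation factors and 2 of the 9 mitochondrial ribosomal protein genes.

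Genes of transcription, splicing and chromatin followed. Spliceosome and splicing factors counted 12 of 59 genes (20.3%) at 10 peaks, led by rsp-2/rsp-1 (73.8) and prp-40 (65.9). RNA polymerases, general factors and Integrator counted 7 of 54 (13.0%), led by ints-4 of the Integrator complex (84.6), rpb-11 (71.1) and taf-11.3 (54.4), and the rpb-11 peak was not matched in replicate 1's cut list. Mediator had 1 of 17, mdt-22 (39.8). Chromatin regulators counted 12 of 66 (18.2%), led by efl-1, lin-53 and set-16 (79.7), and 9 of the 12 were matched in both replicates; lin-35, the worm Rb gene, and lin-9 were also among them. Histone genes counted 4 of 51 (7.84%) at 3 peaks, those of his-37, his-67/his-68 (84.8) and his-72. The list of SNAPc and piRNA transcription genes had 3 of 17, snpc-4 (131), attf-3 (38.5) and snpc-3.4 (36.8). Of these, snpc-4 is also carried by the transgene, and the list was not counted without it. The snpc-3.4 peak was not matched in replicate 1's cut list. RNA decay and exosome genes counted 2 of 28, exos-3 and edc-4 (55.2).

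**Figure D5:**
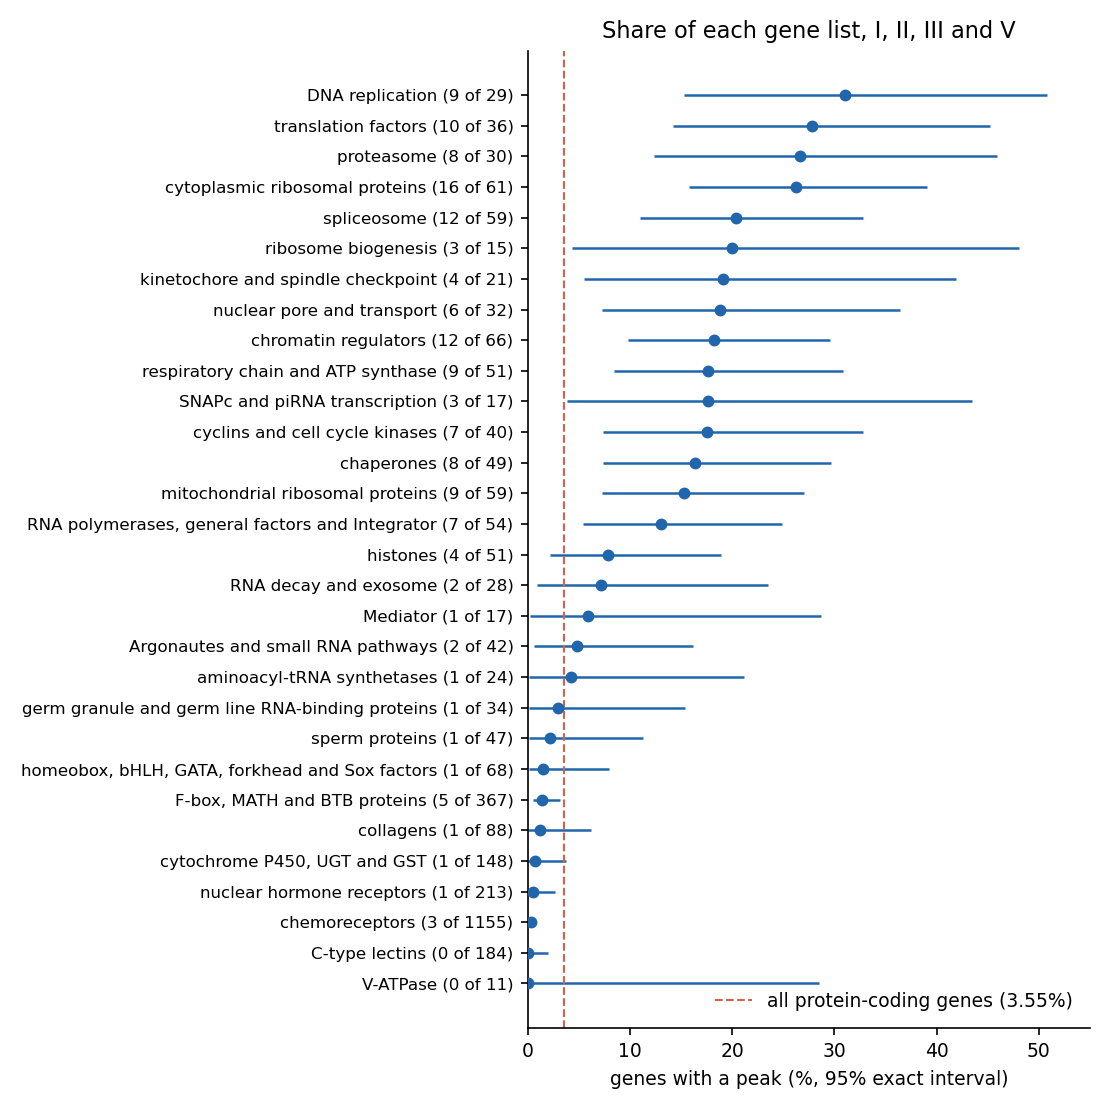
Share of the genes of each of 30 lists with a SNPC-4 promoter peak (points) and 95% exact binomial interval (lines), with the number of genes in parentheses. The dashed line is the share of all protein-coding genes of I, II, III and V, 3.55%. Lists of protein synthesis, the proteasome, splicing and DNA replication lie to the right of the line, and those of chemoreceptors, C-type lectins, nuclear hormone receptors and F-box proteins to its left.

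Cell division and housekeeping lists were similar. DNA replication counted 9 of 29 genes (31.0%, interval 15.3 to 50.8), the highest share of the 30 lists in the optimal list but in neither replicate's own, led by cdc-6 (57.1), mcm-7 (46.5) and orc-1 (40.7), and included mcm-2, mcm-4 and mcm-6 of the replicative helicase. Their signals were low, with a median of 39.4, and 4 of the 9 were matched in both replicates. Cyclins and cell cycle kinases counted 7 of 40 (17.5%), led by cdc-48.1, cyl-1 (78.8) and cdk-7 (64.5). Of the 7, cdc-48.1, cdc-6, bir-1 and bir-2 enter by their symbols and encode neither a cyclin nor a kinase. The gene cdc-6 is also counted under DNA replication. Kinetochore and spindle checkpoint genes counted 4 of 21 (19.0%), kbp-4 (64.5), hcp-6 (38.3), bub-1 (33.5) and mdf-1, where hcp-6 enters by its symbol. Proteasome subunits counted 8 of 30 (26.7%), led by rpt-1, rpn-9 (69.1) and rpn-12 (54.3). Chaperones counted 8 of 49 (16.3%), led by dnj-9, cct-1 of the chaperonin CCT (65.8) and dnj-22 (46.9). The respiratory chain and ATP synthase counted 9 of 51 (17.6%), led by cox-5A, cox-5B and ndub-8 (61.1). Nuclear pore and transport genes counted 6 of 32 (18.8%), led by the importin gene imb-3 (71.6), npp-14 (67.1) and imb-1 (65.0). The V-ATPase list had 0 of 11 genes, which allows a share of up to 27.3%.

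Large gene families of the worm had few promoter peaks. Of 1155 chemoreceptor genes 3 had a peak (0.260%, interval 0.0536 to 0.757), led by sri-5 (62.9). C-type lectins had 0 of 184, which allows a share of up to 1.63%. Nuclear hormone receptors had 1 of 213, nhr-58 (31.9), and F-box, MATH and BTB genes 5 of 367 (1.36%), led by fbxa-99 (72.1). The intervals of these 4 lists lay below 3.55%. Cytochrome P450, UGT and GST genes had 1 of 148, gst-43 (37.2), collagens 1 of 88, col-71 (37.7), and homeobox, bHLH, GATA, forkhead and Sox factors 1 of 68, ceh-38 (72.2). Sperm proteins had 1 of 47, spe-48 (43.2). The intervals spanned 3.55% for cytochrome P450, UGT and GST genes (0.0171 to 3.71%) and for collagens (0.0288 to 6.17%). They also did for homeobox, bHLH, GATA, forkhead and Sox factors (0.0372 to 7.92%) and for sperm proteins (0.0539 to 11.3%). For the genes of germ line small RNA pathways the intervals spanned 3.55% as well. Argonautes and small RNA pathways counted 2 of 42 (4.76%, interval 0.582 to 16.2), mut-15 (56.2) and rde-10 (32.8), and germ granule and germ line RNA-binding proteins 1 of 34, nos-3 (57.2).

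In each replicate's own cut list the gene lists kept their order in part. Replicate 2 alone gave 512 genes with a promoter peak, 433 of them shared with the 495, and replicate 1 alone gave 303, with 249 shared. The highest share belonged to ribosome biogenesis in replicate 2, with 5 of 15 genes (33.3%, interval 11.8 to 61.6), and to cytoplasmic ribosomal proteins in replicate 1, with 13 of 61 (21.3%, interval 11.9 to 33.7). DNA replication genes counted 9 of 29 from replicate 2 and 4 of 29 from replicate 1 (13.8%), cytoplasmic ribosomal proteins 15 of 61 from replicate 2, and proteasome genes 7 and 4 of 30.

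The lists whose intervals spanned the share of all genes in replicate 1 had few genes there. They were mitochondrial ribosomal proteins (4 of 59), ribosome biogenesis (1 of 15), RNA polymerases, general factors and Integrator (3 of 54), and SNAPc and piRNA transcription (2 of 17). The others were chaperones (3 of 49), nuclear pore and transport (3 of 32), and kinetochore and spindle checkpoint (2 of 21). The 8 that lay above it in both replicates were cytoplasmic ribosomal proteins, translation factors, splicing, the proteasome, the respiratory chain and ATP synthase, DNA replication, cyclins and cell cycle kinases, and chromatin regulators. The list of cyclins and cell cycle kinases includes genes that enter by their symbols and encode neither, as given above. Below the share of all genes, chemoreceptors (3 and 1 of 1155) and C-type lectins (0 of 184 in each) stood there in both replicates. Nuclear hormone receptors (2 of 213 in each) and F-box, MATH and BTB genes (5 and 3 of 367) stood below it in replicate 2, and their intervals spanned it in replicate 1. The V-ATPase list had 0 of 11 genes from replicate 2 and 2 of 11 from replicate 1.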

How the data were processed

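ChIP-seq peak lists of 2 biological replicates of 1 group were used as the authors deposited them on ce11. In the deposited lists the signal is the enrichment value of the authors' peak caller, and the summit is a position within the peak. The optimal list is what was left after the filter on reproducibility, per the labels, and relaxed lists were called against a control, per the deposited notes. The control was not analysed here. The sources used here name no aligner, caller, threshold or depth. Lists other than these, namely those on ce10 and the pooled relaxed list, were not used.

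Summits were placed against Ensembl release 115 genes (WBcel235), and sequence was read from the RefSeq assembly of the same build, with Python 3.11.15, NumPy 2.4.6, pandas 2.3.3, SciPy 1.17.1 and matplotlib 3.10.9. The rule used the 5' end of each gene and 24789 non-coding RNA genes. Replicates were matched within 200 bp, with each relaxed list cut at 1781 peaks. Signal values of different lists are on different scales and were not averaged. Library fragments were 150 to 350 bp, per the labels, so a summit is less sharp than a base. The steps were tested on simulated data with peaks at known places.

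The members, the 30 gene lists and the 9 motifs were chosen with earlier results of these data known. Genes were named by rule: those of the 25 strongest peaks, up to 3 per list, the 5 strongest divergent pairs and later-in-run genes, up to 3 per motif and the 3 peaks on each side of the 300 bp limit; other names were chosen after their values were seen. Some items are not reported here.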

Additional observations from a re-analysis of the deposited data

How the results depend on the processing

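Of 94 values under other settings, 70 stayed within the interval of the reported value, or within 1.5 times for the count of peaks, and 24 did not. A limit of 150 bp gave 206 peaks, 1.65% of genes, 10.2% divergent, a median position of -68 bp and 85.0% upstream; 500 bp gave 4.47% of genes, 36.2% divergent and -155 bp. These follow from the limit. The stronger 50% of the list gave 195 peaks, 1.87% of genes, a median signal of 57.1 and 70.8% matched in both replicates. Peaks matched in both gave 165 peaks, 1.60% of genes, 33.9% divergent, 88.5% at a first or lone gene and a median signal of 59.8. The whole relaxed lists gave 96.6% matched. A run gap of 200 bp gave 96.1% and of 1000 bp 75.1% at a first or lone gene, against 82.9% reported. At the reported gap of 500 bp, 61.9% of all genes stood alone and 15.4% first. For the other gaps the share of all genes is not given. A narrower gap leaves more genes alone by definition, so these values describe the gap. AGACGCAG within 50 bp was at 9.19% of peaks.

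Taken from a single replicate's own list cut at the same length, that is without replicate 1 or without replicate 2, the count of peaks ranged from 233 to 396, the share of genes from 2.17% to 3.67%, the divergent share from 26.8% to 29.6%, the median position from -144 to -128.5 bp, the upstream share from 88.1% to 90.1%, the share at a first or lone gene from 81.3% to 86.7%, AAACGCGC from 10.7% to 11.9% and AGACGCAG from 11.6% to 13.4%. The lowest count is the one without replicate 2. Median signal was not set across the replicates' lists, whose scales differ. Leaving out peaks within 50 kb of snpc-4, chosen after seeing the data, kept 379 of the 381 peaks, so it could hardly move any value. None of the 10 values left its range under that setting. The same held with 5' ends of all transcripts and with a distance of 1000 bp from non-coding RNA 5' ends. No paired analysis was possible because there is 1 group. Depth is unknown and limits which weak peaks are called.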
